A study of Mus musculus with 12 samples.

Results

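The genes described here are 8 markers of monocytes and macrophages, Ccr2, Csf1r, Cx3cr1, Adgre1, Mrc1, F13a1, Ms4a7 and Vcan, measured by RNA sequencing in cultured mouse bone marrow neutrophils. They were looked up by name among the 29737 genes of the deposited table, all 8 were found, and all 8 passed the filter on low counts that kept 16761 genes. They were chosen by their counts in these samples, since markers such as Ccr2 were known to be lower with tauro-β-muricholic acid (Tβ-MCA) than with PBS, so their values in the comparison of Tβ-MCA with PBS are a description and no test of them is given. The cells came from wild-type mice and were purified as Ly6G+ cells with magnetic beads by the labels and with a neutrophil enrichment kit by the methods. They were kept for 24 h in medium with fetal bovine serum. Each of 4 groups had 3 samples: PBS as the control, 200 μM taurocholic acid (TCA), 200 μM glycocholic acid (GCA) and Tβ-MCA, for which the labels give 10 μM and the written methods the same dose as for the other acids. The labels number the PBS samples 3, 5 and 6 and the samples of each bile acid 3, 4 and 5, and nothing says that samples came from separate mice, so p-values measure only the spread between these samples. The written methods list female C57BL/6 mice aged 4 to 6 weeks, without saying which of them gave the marrow.

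Monocytes are made in the bone marrow beside neutrophils and share early progenitors with them. Classical monocytes leave the marrow through the chemokine receptor Ccr2 and can become macrophages in tissues, while patrolling monocytes carry much of the chemokine receptor Cx3cr1. Survival of monocytes and macrophages depends on Csf1r, the receptor for the growth factors Csf1 and Il34. Of the other members, Adgre1 is a surface receptor used to stain mouse macrophages, Mrc1 is the mannose receptor, Ms4a7 is a membrane protein of macrophages, F13a1 is the A subunit of the clotting transglutaminase factor XIII, and Vcan is versican, a matrix proteoglycan that classical monocytes make.

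The samples held 32757389 to 41375925 counted reads. The 15 neutrophil genes summed to between 53350 and 65620 CPM, which are reads of a gene scaled to a library of 1000000 reads, in the PBS samples, against 1001 to 1047 CPM for the 8 members. In the same samples 12 further genes of classical monocytes summed to 3339 to 3661 CPM and 16 further macrophage genes to 3036 to 4142 CPM. These sums depend on the genes listed and are no measure of purity. Ly6g, the gene of the antigen named for the purification, stood at 17.8 to 21.4 CPM with PBS. Of the 3 Tβ-MCA samples, replicate 5 stood apart from replicates 3 and 4 and closer to PBS, so fitted values of Tβ-MCA against PBS are given with and without it for the members. The same holds for most list genes named with a fold or a test, while those of Nkg7 and Pecam1 are given only without it. In RNA from a mixture, fewer cells of a type and less RNA per cell cannot be told apart, and that holds for each difference below.

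In the control cells the members covered a wide range of levels, which was read on the scale of RPKM, which also divides by the length of the exons, since only a value per length can be compared between genes. With PBS, F13a1 was the highest at a mean of 136.9 RPKM, followed by Csf1r at 50.5 and Adgre1 at 19.8. Cx3cr1 followed at 7.35, Ccr2 at 6.15 and Vcan at 5.68, and Ms4a7 at 1.12 and Mrc1 at 0.216 were the lowest. The ranges of the 3 PBS samples overlapped between Cx3cr1 and Ccr2 and between Ccr2 and Vcan, and between no other neighbours in this order. In Tβ-MCA replicates 3 and 4 the order was another one: Csf1r came first with a mean of 34.0 RPKM and F13a1 second with 17.1, and Vcan, at 0.0828, was below Mrc1 at 0.106.

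The genes that differed most with Tβ-MCA were Vcan, Ccr2 and F13a1. The level of Vcan was 99.4, 76.2 and 74.0 CPM with PBS (replicates 3, 5 and 6) and 1.26, 1.08 and 50.1 CPM with Tβ-MCA (replicates 3, 4 and 5). Those low values rested on 42 and 40 reads, well above the 3 reads taken as the floor, and all 3 Tβ-MCA samples were below all PBS samples. Ccr2 stood at 51.2, 37.3 and 37.9 CPM with PBS and at 2.03, 2.70 and 29.2 CPM with Tβ-MCA. For F13a1 the PBS samples held 584, 519 and 529 CPM and the Tβ-MCA samples 54.8, 75.9 and 367 CPM. In each of these genes replicates 3 and 4 were at a small part of the control level and replicate 5 lay between them and the controls, without overlap between the groups. As a percentage of the PBS mean, replicates 3 and 4 kept 1.51% and 1.30% of Vcan, 4.83% and 6.41% of Ccr2 and 10.1% and 13.9% of F13a1, and replicate 5 kept 60.2%, 69.4% and 67.5% of them in that order. The fitted log2 fold changes were -2.24 (SE 1.12) for Vcan, -1.89 (SE 0.83) for Ccr2 and -1.71 (SE 0.65) for F13a1. Without Tβ-MCA replicate 5 they were -6.15 (SE 0.48), -4.15 (SE 0.28) and -3.06 (SE 0.25), so that 1 sample set both their size and most of their error.

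**Figure D1:**
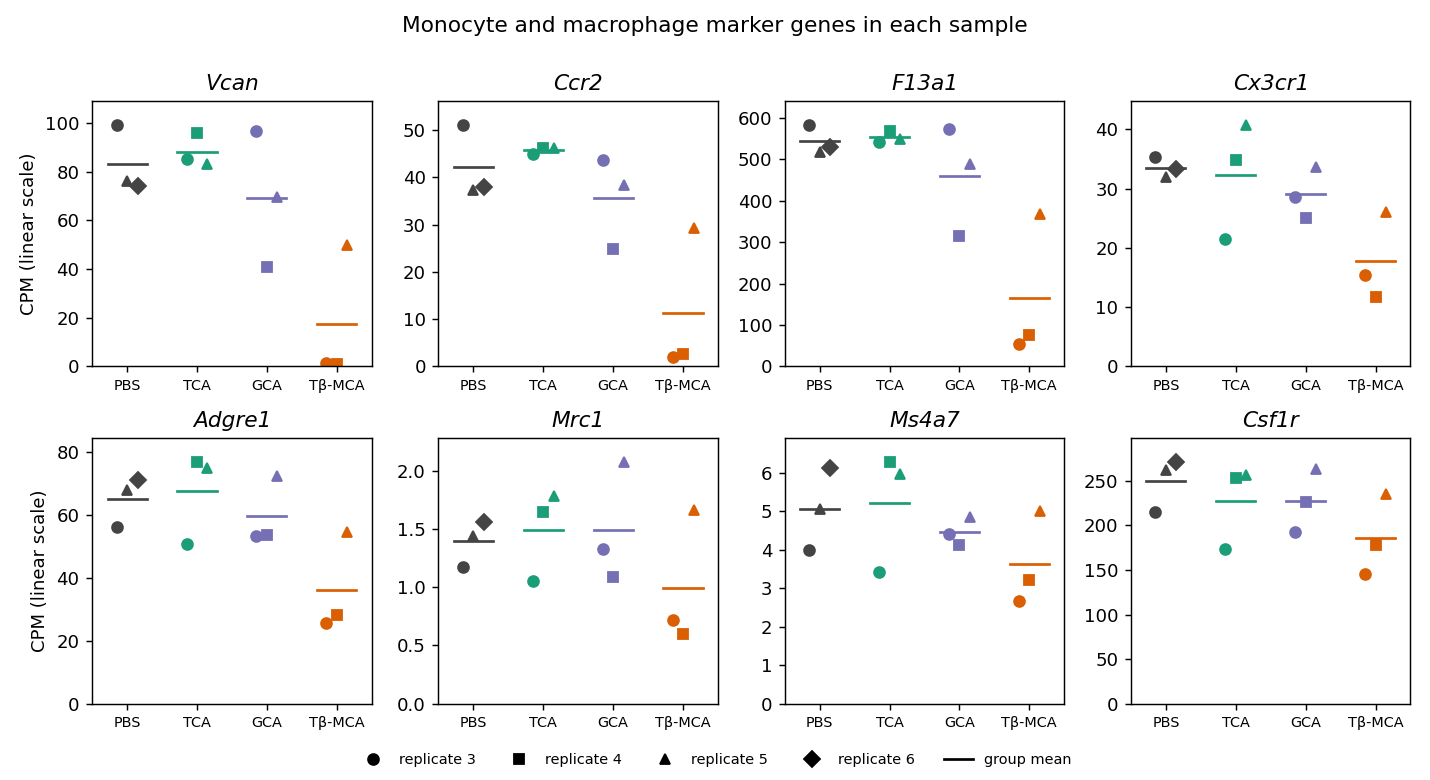
CPM (vertical axis, linear from 0, with its own scale for each gene) of the 8 members in each of the 12 samples, by group; the shape of a point gives the replicate number and the line is the group mean. In Vcan, Ccr2 and F13a1, Tβ-MCA replicates 3 and 4 lie near the bottom (1.26 and 1.08 CPM in Vcan) and replicate 5 far above them (50.1 CPM), whereas in Csf1r, Mrc1 and Ms4a7 the Tβ-MCA samples overlap the PBS samples.

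Cx3cr1 and Adgre1 made a middle group. The receptor Cx3cr1 was at 35.3, 32.0 and 33.3 CPM with PBS and at 15.5, 11.7 and 26.0 CPM with Tβ-MCA, and Adgre1 was at 56.0, 67.8 and 71.0 CPM and at 25.6, 28 and 54.4 CPM. Neither gene had a Tβ-MCA sample within the range of PBS, although Adgre1 in replicate 5 came within 2 CPM of the lowest control. Replicates 3 and 4 kept 46.2% and 34.8% of the PBS mean of Cx3cr1 and 39.5% and 43.1% of that of Adgre1. The fitted log2 fold change of Cx3cr1 was -0.92 (SE 0.30), or -1.31 without Tβ-MCA replicate 5, and that of Adgre1 was -0.85 (SE 0.30), or -1.28 without it. In the table the span of Cx3cr1, chr9:119901616-120069879 on the minus strand of GRCm38, holds Wdr48, with 2004 to 2732 reads per sample, and 7 further genes. A strand setting for the counting is not given in the sources used here, so the share of these reads that belongs to Cx3cr1 is uncertain.

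Csf1r, Mrc1 and Ms4a7 were the members with the smallest differences, and in each the groups overlapped. Csf1r, the growth factor receptor, was at 216, 262 and 271 CPM with PBS and at 146, 178 and 235 CPM with Tβ-MCA. Its span (chr18:61105572-61132149, plus strand) overlaps Hmgxb3 on the opposite strand, which had 484 to 666 reads per sample. Replicate 5 was inside the control range here, and replicates 3 and 4 kept 58.4% and 71.5% of the PBS mean. Mrc1 was counted at 1.18, 1.44 and 1.56 CPM with PBS and at 0.718, 0.594 and 1.66 CPM with Tβ-MCA, and Ms4a7 at 3.99, 5.06 and 6.12 CPM and at 2.66, 3.21 and 5.01 CPM. The 2 lowest values of Mrc1 were 24 and 22 reads, and in replicate 5 Mrc1 was higher than in every PBS sample. The fitted log2 fold changes were -0.42 (SE 0.21) for Csf1r, -0.49 (SE 0.36) for Mrc1 and -0.48 (SE 0.25) for Ms4a7, and -0.62, -1.09 and -0.78 without Tβ-MCA replicate 5.

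Over the 8 members the fitted log2 fold change with Tβ-MCA was negative in all 8, from -2.24 to -0.42, with a median of -0.88 beside 0.004 over all genes tested. Without overlap between the groups, 5 of the 8 were lower, against 12.8% of all genes tested, while 14.1% were higher without overlap; since the rule for the members used this comparison, nothing is read from that count. The summed level of the members was 248 CPM in replicate 3, 301.5 CPM in replicate 4 and 769 CPM in replicate 5, each below the lowest PBS sample at 1001 CPM.

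**Figure D2:**
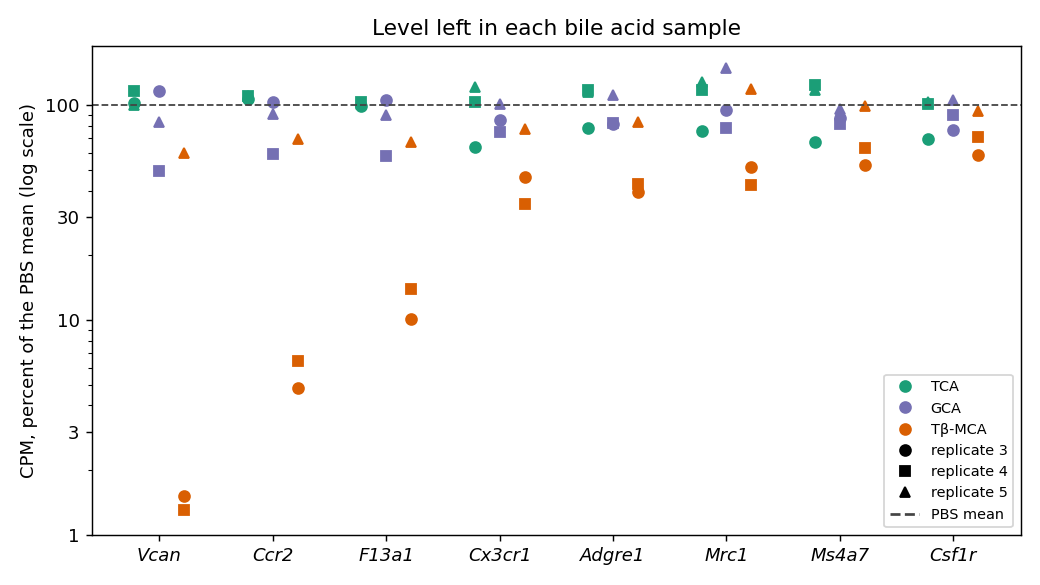
CPM of each member in every bile acid sample as a percentage of the mean of the 3 PBS samples (vertical axis, log scale; the dashed line is that mean), with the acid by colour and the replicate number by shape. Tβ-MCA replicates 3 and 4 range from 1.30% in Vcan to 71.5% in Csf1r, and replicate 5 ranges from 60.2% in Vcan to 119% in Mrc1.

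The members therefore did not keep the ratios to each other that they had in the controls. Set against Csf1r in the same sample, there were 14.0 to 26.0 reads of Ccr2 per 100 reads of Csf1r in the PBS and TCA samples and 11 to 22.7 in the GCA samples. In Tβ-MCA replicates 3, 4 and 5 the figure was 1.40, 1.51 and 12.4. Vcan went from 18.1 to 50.3 reads per 100 reads of Csf1r in the 9 samples of PBS, TCA and GCA to 0.863, 0.606 and 21.3 with Tβ-MCA. The figure for Adgre1 was 23.7 to 30.3 in those samples and 17.6, 15.7 and 23.1 with Tβ-MCA, and that for Cx3cr1 was 11.1 to 16.4 and 10.6, 6.54 and 11.1. Ms4a7, the steadiest member against Csf1r, held 1.83 to 2.48 reads per 100 reads of Csf1r in those 9 samples and 1.83, 1.80 and 2.13 with Tβ-MCA. For F13a1 the figure was 140 to 313 in those 9 samples and 37.6, 42.5 and 156 with Tβ-MCA. For Mrc1 it was 0.482 to 0.788 and 0.493, 0.333 and 0.706. In replicates 3 and 4, Ccr2, Vcan, F13a1, Adgre1 and Cx3cr1 were thus below the range of the other groups, Ccr2 and Vcan by the widest margin. Mrc1 was below that range only in replicate 4, and Ms4a7 was at its lower edge.

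Ccr2, F13a1 and Vcan also ran together among the samples without Tβ-MCA. As a measure, the SD over samples of the log2 ratio of 2 members was taken for all 28 pairs, which is 0 for a constant ratio; it is a description of samples that share their normalization, and the division into these 3 genes and the other 5 was drawn after the values were seen. Over the 9 samples of PBS, TCA and GCA, the 3 pairs among Ccr2, F13a1 and Vcan had SDs of 0.0988 to 0.138 and the 10 pairs among the other 5 members had SDs of 0.112 to 0.222. The 15 pairs that joined a gene of one set with a gene of the other had larger SDs, of 0.303 to 0.491. Over all 12 samples, pairs within the other 5 members still had SDs of 0.164 to 0.347, and those within Ccr2, F13a1 and Vcan widened to between 0.433 and 1.18, which overlaps the 0.731 to 2.16 of the pairs that joined the sets. The samples behind this division can be named. GCA replicate 4 held 59.0% of the PBS mean of Ccr2, 57.9% of that of F13a1 and 49.2% of that of Vcan but 90.5% of that of Csf1r. TCA replicate 3 held 69.3% of the PBS mean of Csf1r, 63.9% of that of Cx3cr1 and 67.5% of that of Ms4a7 but 107% of that of Ccr2. Replicate 3 was the lowest sample of its group for Csf1r and for Adgre1 in all 4 groups. The basophil and mast cell genes moved with that number too, with a sum of 55.4 to 65.4 CPM in replicate 3 of the 4 groups and of 29.7 to 37.8 CPM in the other samples. So did the eosinophil genes outside Tβ-MCA, with a sum of 259 CPM in PBS replicate 3 against 149 and 164 CPM in the other PBS samples, 229 CPM in TCA replicate 3 against 143 and 151 CPM and 253 CPM in GCA replicate 3 against 121 and 156 CPM. The part of these genes in the result was not tested.

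**Figure D3:**
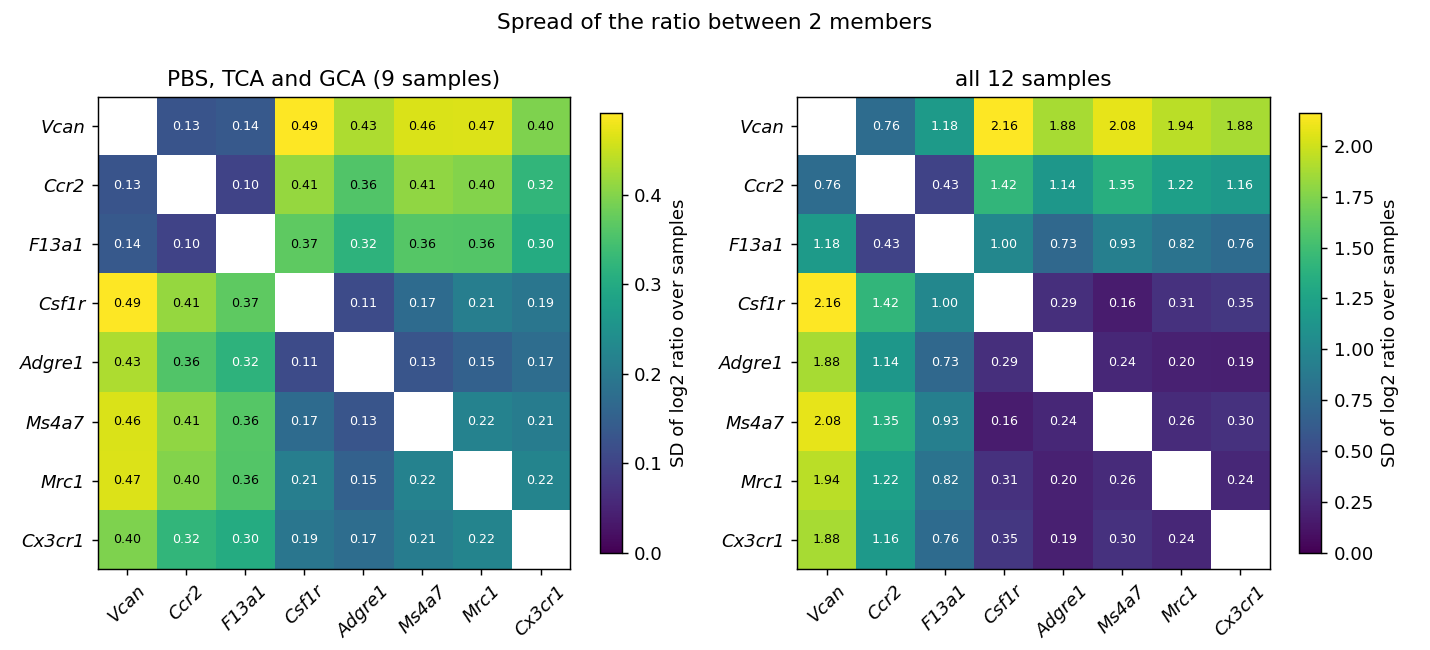
SD over samples of the log2 ratio between 2 members (colour and number in each cell, log2 units), over the 9 samples of PBS, TCA and GCA on the left and over all 12 samples on the right, each with its own colour scale. On the left the pairs among Vcan, Ccr2 and F13a1 (0.0988 to 0.138) and the pairs among the other 5 members (0.112 to 0.222) form 2 blocks of low values; on the right the highest value is 2.16, for Csf1r with Vcan.

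The genes whose levels ran most like each member were searched among 13222 other genes with a mean of at least 1 CPM, by the same SD of the log2 ratio over the 12 samples, where a smaller SD is a closer likeness. For Ccr2 the 3 nearest were Gm16325 (SD 0.331), the scavenger receptor gene Msr1 (0.353) and Fn1 (0.392), which encodes fibronectin. Vcan was nearest to Apol7d (0.38), Fn1 (0.39) and Gm16325 (0.627), and F13a1 to Mpzl3 (0.216), RP24-167A12.4 (0.234) and Ms4a8a (0.242). Fn1 and Gm16325 were thus near both Ccr2 and Vcan. Adgre1 had Mertk (0.0937), a receptor for the uptake of dying cells, the scavenger receptor gene Stab1 (0.11) and Il13ra1 (0.112) beside it, and Mrc1 had Mertk (0.168), Inppl1 (0.193) and Wnk2 (0.194). The nearest to Csf1r were Zfp385a (0.0678), Spata13 (0.0737) and Rpf2 (0.0786), to Ms4a7 Cyp20a1 (0.0993), Gm24201 (0.117) and Cttnbp2nl (0.123), and to Cx3cr1 Evl (0.155), Arhgef10l (0.165) and Adgre4 (0.176). When the 9 samples without Tβ-MCA were used, Fn1 was again among the 3 nearest to Ccr2 (0.0896) and to Vcan (0.145), Zfp385a among those of Csf1r (0.0635) and Mertk among those of Mrc1 (0.129).

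In the deposited table, on GRCm38, Ccr2 lies at chr9:124101950-124113557 on the plus strand, Adgre1 at chr17:57358686-57483529 (plus) and Mrc1 at chr2:14229392-14332057 (plus). Ms4a7 is at chr19:11321039-11336146, F13a1 at chr13:36867178-37050244 and Vcan at chr13:89655312-89742509, all on the minus strand. To show what lies in front of F13a1 and Vcan, which differed strongly, and of Ms4a7, which differed less, the 250 bases upstream of their starts are given, from RefSeq promoter windows of GRCm38.p6 on the strand of the gene. Capitals mark a match to GAGGAA, the core bound by the myeloid factor PU.1, and F13a1 has the only one.
F13a1, chr13:37050245-37050494: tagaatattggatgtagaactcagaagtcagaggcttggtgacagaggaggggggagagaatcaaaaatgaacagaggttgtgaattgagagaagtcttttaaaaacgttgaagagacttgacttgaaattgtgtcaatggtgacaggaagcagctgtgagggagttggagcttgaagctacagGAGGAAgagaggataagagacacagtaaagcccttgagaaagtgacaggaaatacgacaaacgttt
Vcan, chr13:89742513-89742762: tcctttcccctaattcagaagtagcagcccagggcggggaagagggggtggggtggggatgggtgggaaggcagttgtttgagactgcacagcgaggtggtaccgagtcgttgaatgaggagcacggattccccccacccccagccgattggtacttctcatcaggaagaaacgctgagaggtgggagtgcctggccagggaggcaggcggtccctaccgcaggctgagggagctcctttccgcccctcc
Ms4a7, chr19:11336147-11336396: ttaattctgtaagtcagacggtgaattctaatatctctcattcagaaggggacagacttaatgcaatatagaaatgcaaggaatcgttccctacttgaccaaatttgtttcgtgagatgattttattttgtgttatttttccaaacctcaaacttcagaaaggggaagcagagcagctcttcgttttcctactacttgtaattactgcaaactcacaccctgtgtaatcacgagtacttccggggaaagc
Of the 8 members, 6 had such windows, 8 windows in all, which were searched on both strands for GAGGAA, for the composite element of Ets and interferon regulatory factors, for TTNNGCAA (C/EBP) and for TGANTCA (AP-1). GAGGAA was found 66 bases before the start of F13a1 and at 3 places, 180, 167 and 35 bases before the start, in the window of Mrc1 (as its reverse complement), and 23.3% of 32851 windows of this length held it. TGANTCA was found in a second window of Ms4a7 that starts inside the gene, and 6.75% of all windows held it. The windows of Ccr2, Cx3cr1 and Vcan held none of the 4 motifs, and those of Cx3cr1 and, for all but its first bases, of Ccr2 lie within the gene as the deposited table draws it. The composite element and TTNNGCAA, which no window of a member held, were in 2.3% and 9.56% of all windows. A match of letters is not a bound site, and a window without one says only that these letters are not in it.

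TCA and GCA samples took no part in the choice of the members, so the difference of GCA from TCA is apart from that choice. The error it was tested with is not, since the fit of all 12 samples estimates it from the Tβ-MCA samples too. For Vcan, the SE of that difference was 1.05 in this fit and 0.29 in a fit of the 9 samples without Tβ-MCA. The PBS samples took part in the choice, and the comparisons of TCA and of GCA with PBS, which share them, are not fully apart from it. With TCA, the level of Ccr2 was 44.9, 46.2 and 46.3 CPM, that of Vcan 85.1, 96.1 and 83.4 CPM and that of F13a1 542, 568 and 550 CPM (replicates 3, 4 and 5). The range of every member overlapped that of PBS, where 4.76% of all genes tested were lower and 4.91% higher without overlap. The log2 fold changes of TCA against PBS ran from -0.13 in Csf1r to 0.12 in Ccr2, with 6 members higher and 2 lower and a median of 0.05. No member passed edgeR's quasi-likelihood test (adjusted p = 1 for all 8, smallest unadjusted p = 0.53 for Csf1r), and neither did any gene of the table, the share called being 0%. At an unadjusted p under 0.05, 0 of the 8 members and 3.26% of all genes tested were called, and DESeq2 called 1 gene.

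With GCA, the level of Ccr2 was 43.7, 24.9 and 38.5 CPM, that of Vcan 96.7, 40.9 and 69.6 CPM and that of F13a1 574, 315 and 488 CPM. Replicate 4 was the lowest of the 3 in each of these genes. The range of every member overlapped that of PBS, beside 4.83% of all genes tested that were lower and 4.71% that were higher without overlap. Csf1r was at 192, 226 and 263 CPM with GCA, and Cx3cr1 was at 28.6, 25.1 and 33.7 CPM. The log2 fold changes against PBS ran from -0.27 in Vcan to 0.11 in Mrc1, with 7 members lower and a median of -0.19. None passed edgeR's test (adjusted p = 0.999 for all 8, smallest unadjusted p = 0.486 for Ms4a7). The share of genes called was 0% by adjusted p and 3.53% by an unadjusted p under 0.05, which no member reached, and DESeq2 called 0 genes. The comparisons of TCA and of GCA with PBS share the 3 control samples.

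GCA and TCA are cholic acid joined to glycine and to taurine, and were given at the same 200 μM for the same 24 h; they are the only pair compared here. All 3 GCA samples of Ccr2 were below all 3 TCA samples, which was so for 1 of the 8 members and, over all genes tested, for 4.19% (3.81% were higher without overlap); the ranges of the other 7 overlapped. The log2 difference of GCA from TCA was -0.36 in Ccr2, with a 95% interval from -2.17 to 1.44, -0.35 in Vcan (-2.77 to 2.07) and -0.27 in F13a1 (-1.71 to 1.17). Csf1r and Mrc1 stood at 0.00, with intervals from -0.46 to 0.46 and from -0.74 to 0.74. No member passed edgeR's test (adjusted p = 1 for all 8; smallest unadjusted p = 0.369, in Ms4a7), and the share of genes called was 0% (2.46% at an unadjusted p under 0.05). The wide intervals came with the spread of the Tβ-MCA samples, which enter the shared estimate. In a fit of the 9 samples without them, added after the data were seen, the interval of Ccr2 ran from -0.79 to 0.08, that of Vcan from -1.05 to 0.34 and that of F13a1 from -0.68 to 0.14, and the adjusted p of all members in edgeR was again 1. These intervals still reach to -0.79 for Ccr2 and to -1.05 for Vcan, so the acids are not shown to act alike on these genes. Tβ-MCA, at another dose by the labels, is only set beside them: replicates 3 and 4 held less of every member but Csf1r than every TCA and GCA sample, and replicate 5 held more Vcan (50.1 CPM) and Ccr2 (29.2 CPM) than GCA replicate 4 (40.9 and 24.9 CPM).

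**Figure D4:**
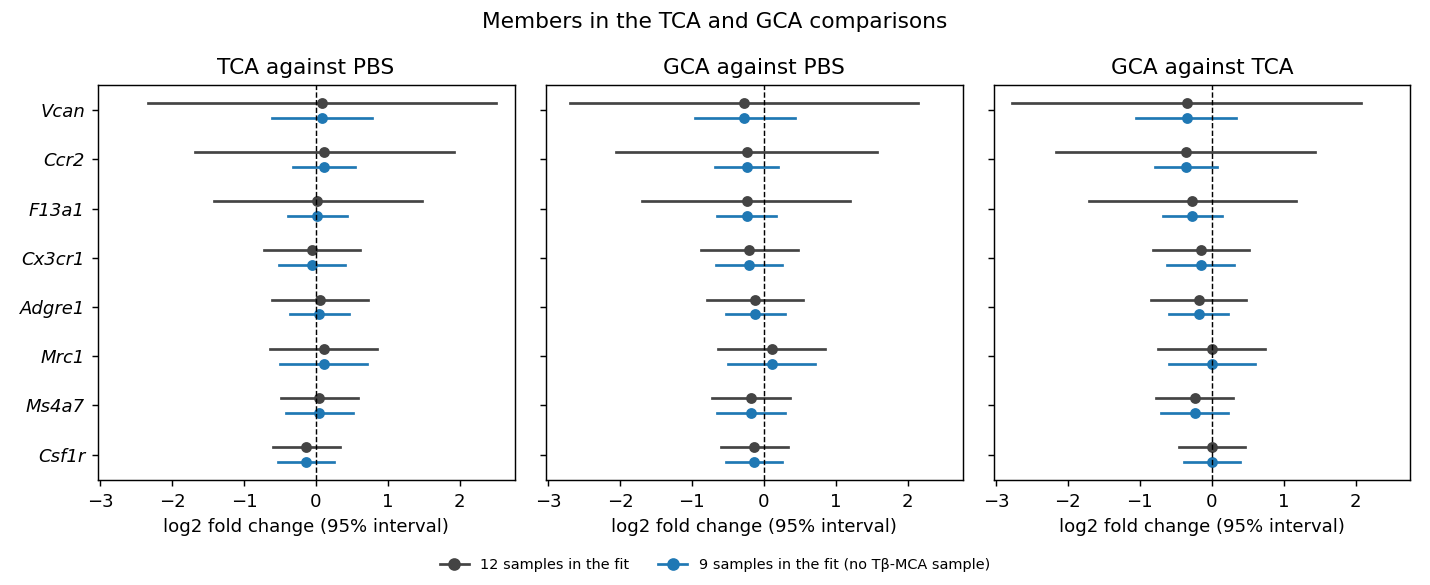
Log2 fold change (horizontal axis) of each member for TCA against PBS, GCA against PBS and GCA against TCA, with the 95% interval from the edgeR fit of all 12 samples (dark) and of the 9 samples without Tβ-MCA (blue). Every interval includes 0, and for Vcan in GCA against TCA the interval narrows from between -2.77 and 2.07 to between -1.05 and 0.34.

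Other genes of monocytes, macrophages and the cells around them were read from 16 lists, with 120 genes tested. With Tβ-MCA, 18 of the 120 fell and 0 rose by edgeR's adjusted p, beside 7.62% of all genes that were called, 3.18% that fell and 4.44% that rose. An unadjusted p under 0.05 was reached by 24.9% of all genes. The call rested on single samples. Without Tβ-MCA replicate 5, 54 list genes were called, 53 lower and 1 higher, beside 18% of all genes (9.44% lower and 8.52% higher). Without PBS replicate 3 or 5 or Tβ-MCA replicate 3 or 4, 0 list genes were called, and the count was 1 without PBS replicate 6, 9, 6 and 7 without TCA replicates 3, 4 and 5, and 9 without GCA replicate 5. DESeq2 called 37. The members are on none of these lists, which were written with earlier results of these data known and are no independent evidence. Tβ-MCA replicate 5 was left out because it stood apart and closer to PBS. Counts and adjusted p-values without it, here and below, thus describe replicates 3 and 4 beside PBS and are no test.

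Among 12 further genes of classical monocytes, 11 were lower, and Tgfbi was higher but not called (0.14, or 0.12 without Tβ-MCA replicate 5). The median log2 fold change was -0.66, and 3 genes fell by edgeR's adjusted p. They were Ly6c2 (-0.94, SE 0.22, edgeR adjusted p = 0.0353, and -1.29 without Tβ-MCA replicate 5), which encodes the antigen that defines these cells and stood at 107 to 117 CPM with PBS and at 40.7, 50.4 and 82.6 CPM with Tβ-MCA, and Emb (-0.42, or -0.56 without the replicate) and Ms4a6b (-0.93, or -1.29). Fn1, the neighbour of Ccr2 and Vcan in the search above, did not pass (-2.03, SE 1.11, edgeR adjusted p = 0.301). Its levels were 2190, 1646 and 1621 CPM with PBS and 50.3, 54.4 and 1233 CPM with Tβ-MCA, so that replicates 3 and 4 were again far below replicate 5. Without Tβ-MCA replicate 5, 9 of the 12 fell, with Fn1 at -5.12 (edgeR adjusted p = 4.69e-05). Of 8 genes of patrolling monocytes, Treml4 (-0.50), Pou2f2 (-0.57) and Itgal (-0.35) fell, with a median of -0.42 over the list. Eno3 (0.34) and Cd300ld (0.09) were higher but not called. Without that replicate Treml4, Pou2f2 and Itgal were at -0.56, -0.73 and -0.46. Of the list 3 genes then fell and 1, Eno3, rose (0.48), and Cd300ld was at 0.04.

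Of 15 further macrophage genes tested, Vcam1 (-1.14) and Siglec1 (-1.72) fell, and the median was -0.68. Without Tβ-MCA replicate 5, 10 fell, Vcam1 at -1.57 and Siglec1 at -2.71, and the median was -1.18. With all samples 14 of the 15 were lower, and Gpnmb was higher but not called (0.39, or 0.37 without the replicate). Gpnmb was at 521 to 800 CPM with PBS and at 782, 1010 and 934.5 CPM with Tβ-MCA. Fcgr1, the high-affinity receptor for immunoglobulin G on monocytes and macrophages, was at 2.15, 3.53 and 4.99 CPM with PBS and at 0.150, 0.0540 and 1.98 CPM with Tβ-MCA, and passed only without that replicate (-2.26, edgeR adjusted p = 0.126, and -5.11, adjusted p = 7.76e-05, without it). Its value in Tβ-MCA replicate 4 lay under the floor of 3 reads, which was 0.081 CPM in that sample, so the size of -5.11 is uncertain. Mertk, near Adgre1 and Mrc1 in the search, was at 39.3 to 48.7 CPM and at 18.1, 21.3 and 44.4 CPM, and likewise passed only without it (edgeR adjusted p = 0.233 and 0.00174). Of 13 dendritic cell and MHC class II genes, Cd74, the invariant chain, fell (-0.91), and 2 fell without the replicate, Cd74 at -1.29. With all samples 10 of the 13 were lower, with a median of -0.48 over the list. The 3 that were higher but not called were Zbtb46 (0.24, or 0.15 without the replicate), Cd209a (0.25, or 0.56) and Siglech (0.18, or 0.19).

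Of 10 transcription factors of the lineage, Zeb2 fell (-0.52), and 7 fell without Tβ-MCA replicate 5, Zeb2 at -0.73. With all samples 9 of the 10 were lower, and Maf was higher but not called (0.12 with and without the replicate). Spi1, which encodes PU.1 and is also active in neutrophils, was at 457 to 504 CPM with PBS and at 410, 414 and 465 CPM with Tβ-MCA (edgeR adjusted p = 0.152, and 0.0418 without the replicate). Irf8, which directs progenitors to the monocyte fate, was at 79.8 to 92.7 CPM and at 39.0, 37.8 and 70.9 CPM, with an edgeR adjusted p of 0.0568, and of 3.63e-05 without the replicate. Of the ligands of Ccr2, Csf1r and Cx3cr1, only Csf1 and Ccl2 could be tested, and neither passed. Ccl2 passed without the replicate (-2.73, edgeR adjusted p = 0.0224, against -1.24 with it). Csf1 was at 20.4 to 22.4 CPM with PBS and at 25.9, 21.2 and 20.3 CPM with Tβ-MCA, and Ccl2 was below 1 CPM in all of these samples. With Tβ-MCA, Ccl2 was at 0.180, 0 and 0.562 CPM. The value of replicate 4 was under the floor of 3 reads, so the size of -2.73 is uncertain. Among 8 receptors related to the members, the chemokine receptor Ccr1 fell (-0.74, or -1 without the replicate), from 78.5 to 83.5 CPM with PBS to 34.4, 46.2 and 64.4 CPM, and 5 of the 8 fell without the replicate.

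Genes of other cell types moved beside the members. Of 15 neutrophil genes, 5 fell, namely Ly6g (-0.99, or -1.27 without Tβ-MCA replicate 5), S100a8 (-0.30, or -0.34), Lcn2 (-0.29, or -0.30), Camp (-1.14, or -1.44) and Mmp9 (-0.63, or -0.88). Without the replicate 11 fell. The summed level of the list was 43250 to 48890 CPM with Tβ-MCA, below every PBS sample. Ly6g itself was at 7.54, 8.32 and 12.9 CPM with Tβ-MCA. The lowest log2 fold changes of the list were those of Elane (-1.43, or -2.53 without the replicate) and Mpo (-1.40, or -2.40). Neither was called with all samples. Mpo was at 194.5 to 209 CPM with PBS and at 32.3, 44.5 and 154 CPM with Tβ-MCA. In Elane the range was 21.8 to 27.8 CPM with PBS, against 2.72, 5.94 and 19.2 CPM. In both, replicates 3 and 4 were far below replicate 5, as in Ccr2 and F13a1. Of 6 eosinophil genes Siglecf fell (-0.93), 3 of the 6 fell without the replicate (Siglecf at -1.37), and the sum of the list was 80.2, 56.8 and 133 CPM with Tβ-MCA against 149 to 259 CPM with PBS. Eosinophils also express Adgre1. Of 7 B cell genes Cd79a fell (-0.81, or -0.97 without the replicate). No gene of the lists for basophils and mast cells, T and NK cells, erythroid cells, megakaryocytes, endothelium and stroma, or the cell cycle was called with all samples. Without Tβ-MCA replicate 5, Nkg7 of the T and NK cell list (-2.50, edgeR adjusted p = 0.0298) and Pecam1 of the endothelial and stromal list (-0.93, edgeR adjusted p = 0.00163) fell. The 5 cell cycle genes summed to 2392 to 2926 CPM with PBS and to 2508 to 2846 CPM with Tβ-MCA, and the T and NK cell genes to at most 3.20 CPM in any sample. The part of these changes in the values of the members was not tested.

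**Figure D5:**
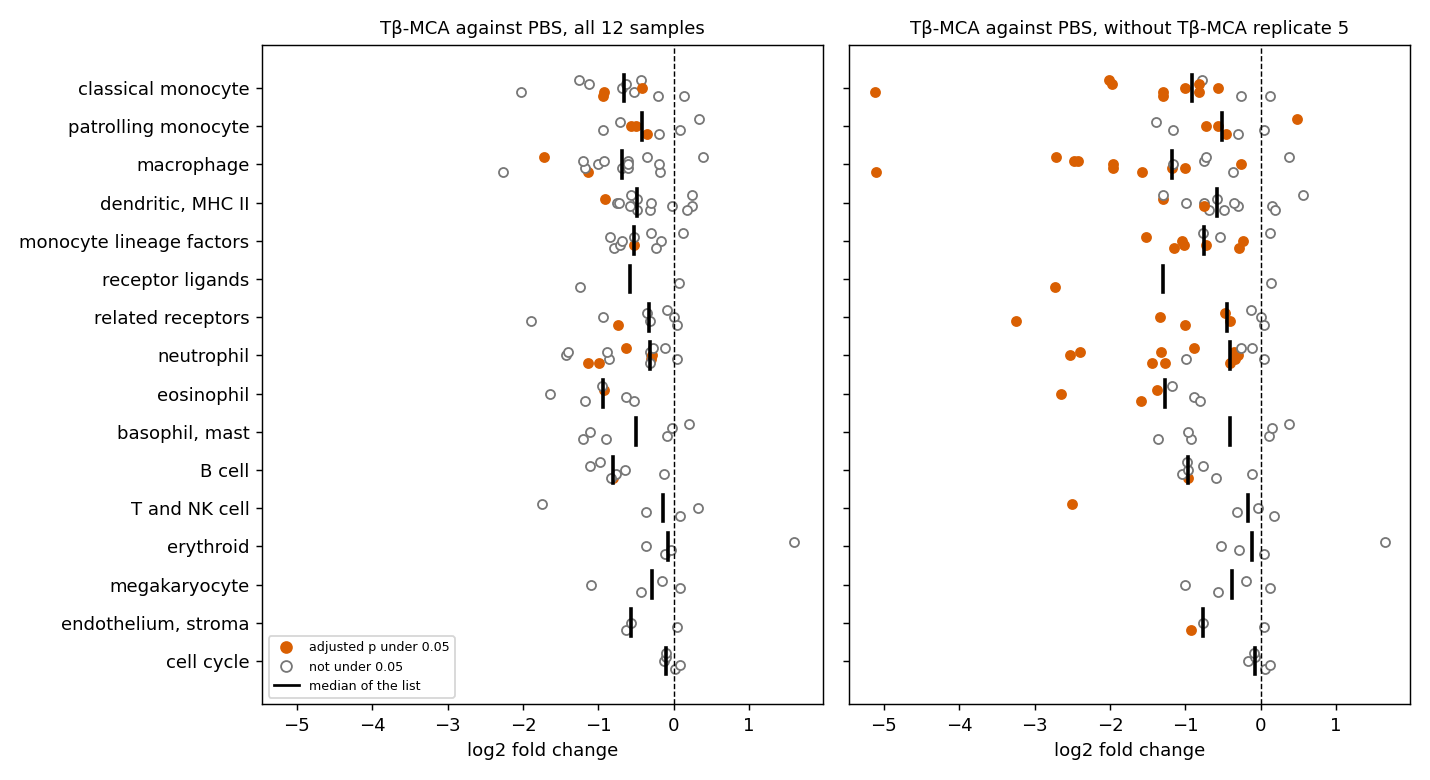
Log2 fold change of Tβ-MCA against PBS (horizontal axis) for the tested genes of 16 lists (rows), with all 12 samples on the left and without Tβ-MCA replicate 5 on the right. Filled points passed an adjusted p of 0.05 in edgeR and the black line is the median of the list, which for macrophage genes is -0.68 on the left and -1.18 on the right and for cell cycle genes -0.10 and -0.08. The right panel is a description, since the sample was left out for its values.

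With TCA and with GCA, 0 of the 120 list genes passed edgeR's test. The median log2 fold change of the 12 classical monocyte genes was 0.03 with TCA and -0.09 with GCA, and that of the 15 macrophage genes was 0.15 and -0.04. Ctss, a lysosomal protease and the most abundant classical monocyte gene per length at 282 RPKM with PBS, differed by -0.07 with TCA and by -0.11 with GCA (edgeR adjusted p = 1 and 0.999). Apoe, the apolipoprotein gene that led the macrophage list at 779 RPKM, differed by 0.15 and -0.02.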

How the data were processed

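Mouse neutrophils of 4 groups of 3 samples were sequenced after a stranded mRNA library kit. According to the submitters' processing notes, Trimmomatic 0.36, STAR 2.5.3a and featureCounts of Subread 1.5.1 were used with GRCm38. The authors deposited raw counts per gene and RPKM values, which are counts per length of exon and per counted reads of the library; recomputed RPKM matched to within 1.3e-06 of each value. The columns of GCA are headed GA, the name in the series' design text.

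Counts were normalized with TMM and filtered with filterByExpr by group, which left 16761 genes. Groups were compared with the robust quasi-likelihood test of edgeR 4.0.16 in R 4.3.3 on all 12 samples, with Benjamini-Hochberg adjustment over all genes tested and a threshold of 0.05; 95% intervals used the degrees of freedom of that fit. CPM used TMM library sizes, and log2 CPM a prior count of 2. DESeq2 1.42.0 and limma 3.58.1 on log2(RPKM + 1) for genes with a mean of at least 0.5 RPKM were alternatives, as were other scalings and filters, a replicate block and leaving out each sample. Fits were tested on simulated counts with 200 changed genes. Python 3.11.15 with pandas 2.3.3, numpy 2.4.6 and matplotlib 3.10.9 did the rest. Floors of 3 counts cover counting error only.

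The members, lists, tests and the wish to look at Tβ-MCA replicate 5 separately were chosen with earlier results of these data known. All members are named; from each list up to 3 genes per direction with the lowest p past the threshold are named, otherwise up to 2 of the highest mean RPKM, and list genes may be named for their levels as markers. Fn1, Mertk, Fcgr1, Irf8, Eno3, Nkg7, Pecam1, Tgfbi, Gpnmb, Maf, Elane and Mpo were picked for the text after their values were seen. So were Cd300ld, Zbtb46, Cd209a, Siglech, Camp and Mmp9. For each member the 3 most similar genes are named. Promoter windows came from RefSeq on GRCm38.p6, without the bases after the start.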

Additional observations from a re-analysis of the deposited data

How the results depend on the processing

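No member was called in TCA against PBS or GCA against PBS under any alternative run (limma on log2(RPKM + 1) left out Mrc1), and in GCA against TCA only Vcan was, without a filter on low counts (1 member; log2 -0.353, edgeR adjusted p = 0.0447, against 1 with the filter). The cause was not tested. In GCA against TCA, Csf1r and Mrc1 differed by almost 0 and changed sign: Csf1r was 0.00574 with the total library size, 0.0191 and 0.0198 with limma on log2(RPKM + 1) and log2(RPKM + 0.1), 0.00655 with the replicate block and 0.000724 with only PBS, TCA and GCA in the fit, and Mrc1 was 0.00257 with the total library size, 0.000459 with DESeq2 and 0.000554 with only those 3 groups. When 1 sample was left out, the values that changed sign ranged, in TCA against PBS, from -0.248 to 0.174 for Cx3cr1, -0.231 to 0.0284 for Csf1r, -0.0501 to 0.223 for Adgre1, -0.0368 to 0.296 for Mrc1, -0.105 to 0.277 for Ms4a7 and -0.0082 to 0.0767 for F13a1. In GCA against PBS the range was -0.209 to 0.287 for Mrc1, and in GCA against TCA it was -0.376 to 0.0468 for Cx3cr1, -0.164 to 0.106 for Csf1r and -0.315 to 0.181 for Mrc1.

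Genes called in TCA against PBS numbered 0, but 1 with DESeq2, 4 with limma on log2(RPKM + 0.1), 37 with edgeR without a filter and 3 with the replicate block. The run of limma on log2(RPKM + 0.1) also had no filter on low values, here and below. In GCA against PBS they numbered 0, but 2 with limma on log2(RPKM + 0.1) and 36 without a filter, and in GCA against TCA 0, but 3 and 42. Without a filter 1, 1 and 2 list genes were called in these comparisons. In Tβ-MCA against PBS the 1278 genes and 18 list genes called became 2103 and 37 with DESeq2 and 3 and 0 with limma on log2(RPKM + 0.1) and no filter. With edgeR they became 2406 and 62 without a filter, and 0 and 0 when only the groups compared were fitted. Leaving out 1 sample gave 0 to 3076 genes and 0 to 54 list genes. The causes were not tested. The fitted log2 fold changes of the 8 members there kept their sign under every alternative run, with that same exception for Mrc1, and their median ranged from -1.29 to -0.693 when 1 sample was left out. The median SD of the log2 ratio over the pairs of members was 0.792 over 12 samples and 0.31 over the 9 without Tβ-MCA.

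Samples of the same number were not treated as pairs. The r of their deviations from the mean of their group was 0.189 on average (15 pairs, 0.0597 to 0.326). Between samples of different number it was lower, at -0.0716 on average (39 pairs, -0.268 to 0.154), and the source of this difference was not tested. PBS shares only 2 numbers with each bile acid, and nothing says what the numbers mean. The replicate block called 1498 genes and 16 list genes in Tβ-MCA against PBS and changed no call of a member. With 3 samples a group and 1 Tβ-MCA sample far from the others, differences of the size of those between GCA and TCA were within the error.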
